A study of Mus musculus with 6 samples.

Results

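Aminoacyl-tRNA synthetases, the enzymes that join each amino acid to its transfer RNA (tRNA), were followed in AML12 cells, a hepatocyte line from mouse liver, after hypoxia and reoxygenation (H/R). The set was 36 genes, taken from the 25330 genes of the deposited tables by their symbols, of which 20 encode enzymes of the cytosol and 16 encode enzymes of the mitochondrion. All 36 had enough counts to be tested. The series held 3 libraries of normoxic control cells, cultured at 21% oxygen and 5% CO2, and 3 libraries of H/R cells, which spent 6 h at 1% oxygen and 5% CO2 in medium without serum and glucose and then 2 h in reoxygenation. All cells were the unmodified AML12 line, grown in medium with 10% fetal bovine serum and 40 ng/ml dexamethasone, so the H/R cells differed from the controls in medium as well as in oxygen and the effects of medium and oxygen cannot be told apart. Nothing in the labels says whether the 3 libraries of a group came from separate cultures, so the p-values measure the spread between these libraries, which may be technical.

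Protein synthesis in an animal cell runs in separate places with separate tRNAs, in the cytosol on messages from the nucleus and in the mitochondrion on the few messages of mitochondrial DNA. Both sets of synthetases are encoded in the nucleus, mostly by separate genes, whose mitochondrial members carry the suffix 2 in their symbols. Several cytosolic synthetases are bound into a multisynthetase complex on scaffold proteins, and many genes of cytosolic synthetases are known targets of ATF4, the transcription factor that is translated when the initiation factor eIF2 is phosphorylated during amino acid shortage or stress of the endoplasmic reticulum.

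Total counts lay between 20438746 and 21854790 per library. Counts were scaled with edgeR's TMM factors, and the quasi-likelihood test of edgeR was run on 14020 genes. A gene was called higher or lower after H/R when its Benjamini-Hochberg adjusted p over all tested genes was under 0.05. The hepatocyte factors Hnf4a (2035 to 3209 counts) and Foxa2 (1247 to 1378 counts) and the keratins Krt8 and Krt18 were present in all libraries. The factor Cebpa had only 9 to 24 counts. Of the listed secreted liver proteins, Fgb and Serpina1a had at most 1 count in each library other than control replicate 1. Alb, Ttr, Trf and Apoa1 were counted in every library and called lower after H/R, while Apoe was not called. Alb had 542, 132 and 209 counts in controls and 43, 31 and 37 in H/R cells. Trf had 503, 390 and 498 counts in controls and 176, 117 and 159 in H/R cells. Control replicate 1 stood apart, with 52 counts of Fgb, 61 of Serpina1a and 131335 of the ribosomal RNA gene Rn18s-rs5, against 28347 to 43775 of Rn18s-rs5 in the other 5 libraries. Of 14 listed markers of other liver cells, 4 had enough counts for a test and 3 rose after H/R, namely Krt7, Krt19 and Cd68. The summed TMM-normalized count of the 14 was 26942 to 29687 in controls and 52917 to 55166 in H/R cells. Most of it came from the keratins Krt19 (mean 18746 in controls, 37536 in H/R cells) and Krt7 (9299 and 16118). The sum of 13 listed hepatocyte markers was 86935 to 92083 in controls and 135440 to 137337 in H/R cells, mostly from Krt8 and Krt18. Of the 11 hepatocyte markers tested, 3 rose and 7 fell. The part of these markers in the values below was not tested. The markers Ptprc, Adgre1, Clec4f, Pecam1 and Acta2 had at most 3 counts in any library. In a bulk library, fewer cells of a kind and less RNA per cell cannot be told apart.

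The cytosolic and the mitochondrial enzymes differed in how many rose and fell after H/R. Of the 20 cytosolic genes, 16 were higher after H/R, 1 was lower and 3 were not called. Of the 16 mitochondrial genes, 4 were higher, 9 were lower and 3 were not called. Among all tested genes, 62.8% were called, 31.0% higher and 31.8% lower. The median log2 fold change (H/R over control) was 0.25 for the cytosolic genes and -0.15 for the mitochondrial genes, beside -0.01 for all tested genes. The changes were modest in size. A fold change of at least 2 with an adjusted p under 0.05 was seen for 8.52% of tested genes (4.25% higher and 4.27% lower), and of the 36 synthetase genes it was reached by Rars2 alone, which was lower. No overlap between the groups, with all 3 H/R libraries above all 3 controls, was found for 16 cytosolic and 4 mitochondrial genes (32.5% of tested genes), and with all H/R libraries below for 1 cytosolic and 9 mitochondrial genes (33.5% of tested genes). Lars2 and Vars2 are in the latter count although they were not called, and Pars2 and Tars2 were called lower although their groups overlap. Scaling by library totals alone shifted the median of all tested genes to -0.12, the cytosolic median to 0.14 and the mitochondrial median to -0.26. The cytosolic median stayed 0.26 above and the mitochondrial median 0.14 lower than that of all genes, as with TMM. Other scaling factors shift all genes by nearly the same amount, so these distances could hardly change and are no check on the result.

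**Figure D1:**
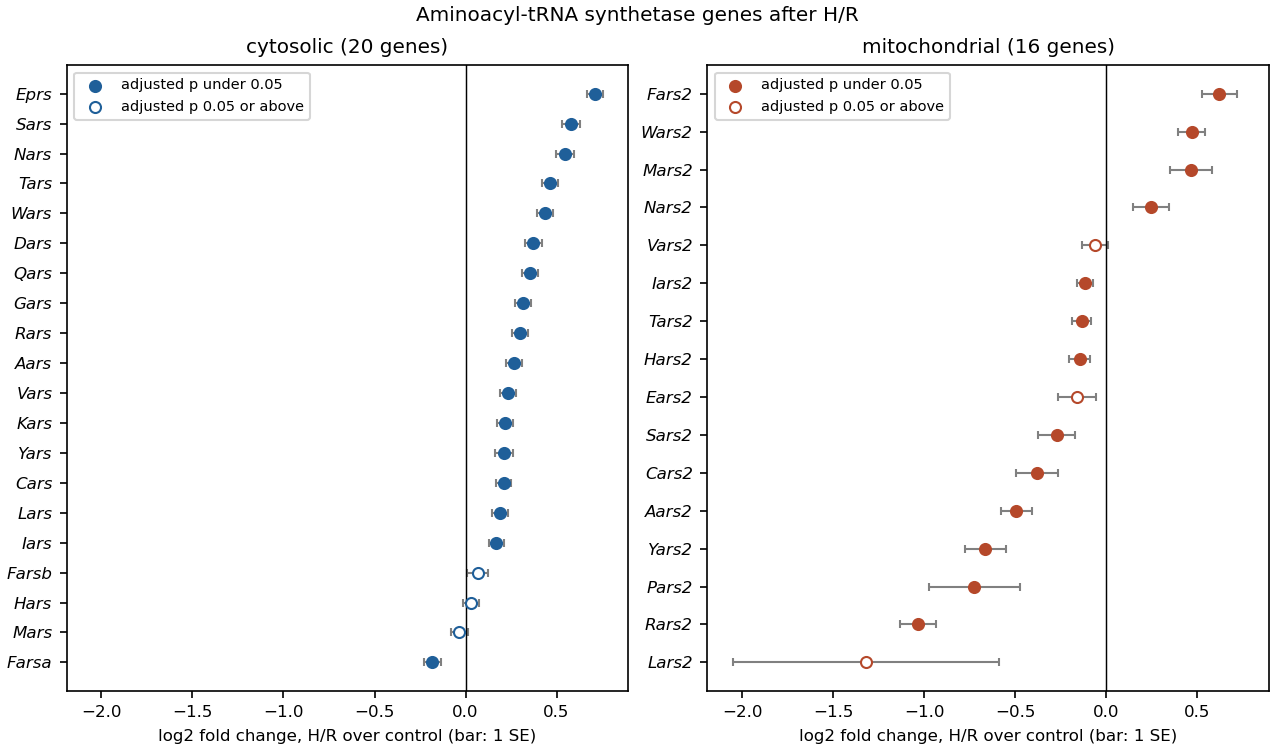
The plot shows the log2 fold change (H/R over control, horizontal axis) of each cytosolic gene (left) and mitochondrial gene (right), with bars of 1 standard error and filled points for adjusted p under 0.05. Of the 20 cytosolic points 16 are filled and lie right of 0, while the mitochondrial points spread from 0.62 (Fars2) to -1.32 (Lars2, open, with a standard error of 0.73).

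Among the cytosolic enzymes, the largest increase was that of Eprs, a fused enzyme that charges both glutamate and proline tRNAs and sits in the multisynthetase complex (GRCm38 chromosome 1, 185363044 to 185428360, plus strand). Its TMM-normalized count was 11409, 12024 and 11505 in the control libraries and 18935, 19226 and 18928 in the H/R libraries. All H/R libraries lay far above the controls, and the libraries within each group were close to each other. The log2 fold change of Eprs was 0.71 (SE 0.044, adjusted p = 6.47e-16), a 1.63-fold increase.

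Sars, the serine enzyme, which also provides the serine from which selenocysteine is made on its tRNA, came next (chromosome 3, 108424865 to 108445209, minus strand). It had normalized counts of 24915, 25270 and 22657 in controls and 37032, 37518 and 34332 in H/R cells. The lowest H/R library was well above the highest control. The log2 fold change was 0.58 (SE 0.049, adjusted p = 1.93e-12). Nars, the asparagine enzyme (chromosome 18, 64499665 to 64516557, minus strand), was the most abundant of all members. Its normalized count was 32391, 32078 and 28472 in controls and 45851, 45745 and 43943 in H/R cells, again with no overlap, and its log2 fold change was 0.54 (SE 0.049, adjusted p = 8.81e-12).

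The other 13 cytosolic genes that rose did so by log2 fold changes of 0.17 to 0.46. They were Tars (threonine, 0.46), Wars (tryptophan, 0.44), Dars (aspartate, 0.37), Qars (glutamine, 0.35), Gars (glycine, 0.31), Rars (arginine, 0.30), Aars (alanine, 0.27), Vars (valine, 0.23), Kars (lysine, 0.22), Yars (tyrosine, 0.21), Cars (cysteine, 0.21), Lars (leucine, 0.19) and Iars (isoleucine, 0.17). In each of them the lowest H/R library exceeded the highest control. Gars and Kars are known to supply the glycine and lysine enzymes of the mitochondrion too, from the same gene, so their counts cannot be assigned to one compartment. Scaled by library totals, Iars, Lars and Yars no longer passed the test (adjusted p = 0.146, 0.0616 and 0.0540). On the log2 scale of RPKM + 1, Iars, Vars and Yars did not pass (limma, adjusted p = 0.127, 0.0709 and 0.0912), nor with 0.1 added in place of 1 (0.128, 0.0700 and 0.0912), so each of these 3 settings left 13 higher cytosolic genes. No call of these 16 genes was lost when any single library was left out.

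The phenylalanine enzyme of the cytosol is built from both Farsa, the alpha chain, and Farsb, the beta chain. Farsa was the only cytosolic gene that fell, while with library totals Mars was called lower too (log2 fold change -0.14, adjusted p = 0.0127). Its normalized count was 2769 ± 161 (SD, n = 3) in controls and 2438 ± 23.4 (SD, n = 3) in H/R cells, a log2 fold change of -0.18 (SE 0.046, adjusted p = 0.000731), and every H/R library was below every control. Farsb had 776 ± 49.2 normalized counts in controls and 813 ± 22.4 in H/R cells (SD, n = 3), with overlapping groups and a log2 fold change of 0.07 that was not called (adjusted p = 0.336).

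Hars, the histidine enzyme, and Mars, the methionine enzyme, were among the 3 members nearest to no change. Hars had normalized counts of 2932, 2900 and 2956 in controls and 2958, 2931 and 3078 in H/R cells, and Mars had 1953, 1848 and 2042 in controls and 1949, 1892 and 1870 in H/R cells. The groups overlapped in both. The log2 fold change was 0.03 for Hars (SE 0.042, adjusted p = 0.567) and -0.03 for Mars (SE 0.047, adjusted p = 0.554), and the sign of Hars and of Farsb turned negative with upper quartile factors, with library totals and on the RPKM scales. Exons of Mars overlap those of Ddit3, which lies on the opposite strand and rose by 1.61 on the log2 scale, over 0.0199 of the exon length of Mars. Hars and Hars2, the genes of the histidine enzymes of cytosol and mitochondrion, lie head to head on chromosome 18 and also share exon sequence (0.0981 of Hars and 0.0456 of Hars2), so their counts are uncertain.

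The increase was not limited to one kind of cytosolic enzyme. Of the 8 synthetase genes whose products belong to the multisynthetase complex (Dars, Eprs, Iars, Kars, Lars, Mars, Qars and Rars), 7 rose and none fell, with a median log2 fold change of 0.26. Of the 12 genes outside the complex, 9 rose and 1 fell, with a median of 0.25. The 3 non-enzymatic scaffold genes behaved in a similar range, with log2 fold changes of 0.37 for Aimp1 (adjusted p = 1.05e-08), 0.34 for Aimp2 (adjusted p = 7.44e-07) and 0.11 for Eef1e1, which was not called (adjusted p = 0.136). Exons of Aimp2 overlap those of Eif2ak1 on the opposite strand over 0.294 of its length. By structural class, 8 of the 9 class I cytosolic genes rose and none fell, and 7 of the 10 class II genes rose and 1 fell. Eprs, which joins an enzyme of each class, was left out of this count. Over all tested genes, 31.0% were called higher and 31.8% lower.

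Of 12 cytosolic synthetase genes that were listed as linked to ATF4 from general knowledge, 11 rose and none fell (median log2 fold change 0.29). Of the 8 other cytosolic genes, 5 rose and 1 fell (median 0.22). The difference between these medians was not tested, since the lists were drawn up with earlier results known. Atf4 itself had normalized counts of 11566, 11505 and 11491 in controls and 18768, 19607 and 19044 in H/R cells. All H/R libraries were above all controls, with a log2 fold change of 0.73 (SE 0.044, adjusted p = 2.11e-16). Of the 7 genes listed as ATF4 and its partners, 6 rose, among them Atf3 (3.56), Nupr1 (1.95), Ddit3, which encodes CHOP (1.61), and Trib3 (1.40), all as log2 fold changes. Of 19 genes for amino acid synthesis, transport and sensing that are linked to ATF4, 12 rose and 2 fell. The other 5 were not called, among them Phgdh, Psat1, Psph and Shmt2. The glutathione-degrading enzyme gene Chac1 rose by 3.02 and the stress sensor gene Sesn2 by 1.60 on the log2 scale, the leucine transporter gene Slc7a5 rose by 0.76, and the cystine transporter gene Slc7a11 fell by 0.83. The largest change of a cytosolic synthetase was 0.71 for Eprs, and a link between the change of Atf4 and those of the synthetases was not tested. Among the 7 genes for eIF2, its kinases and its phosphatase subunits, 3 rose and 2 fell (42.9% and 28.6%). The counts of this paragraph stand beside 31.0% of tested genes called higher and 31.8% called lower, and this last list is not far from those shares. The phosphatase subunit gene Ppp1r15a rose by 1.56 and the kinase gene Eif2ak3, which encodes PERK, by 0.90, while Eif2ak2, which encodes PKR, fell by 1.26.

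The DNA letters to which ATF4 binds with C/EBP partners, TGATGNAA (the CARE motif, searched on both strands), were looked up in the 300 bases around the RefSeq start of each gene, from 250 bases before to 50 after it (GRCm38.p6). A window was given for 27 of the 36 genes, 13 cytosolic and 14 mitochondrial. The letters were present in 5 of the 13 cytosolic windows (Aars, Gars, Iars, Tars and Yars), in 0 of the 14 mitochondrial windows and in 3.97% of all 32851 windows. Of the stretches that hold them, 1 for each of these 5 genes is shown 5′ to 3′ on the strand of the gene, with the motif or its reverse complement in capitals, because these are the sequences in which the cytosolic and mitochondrial windows differed.
Aars, chr8:111033840-111033869, plus strand: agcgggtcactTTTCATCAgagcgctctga
Gars, chr6:55037960-55037989, plus strand: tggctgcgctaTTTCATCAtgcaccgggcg
Iars, chr13:49682126-49682155, plus strand: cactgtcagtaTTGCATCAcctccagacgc
Tars, chr15:11399655-11399684, minus strand: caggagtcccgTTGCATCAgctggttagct
Yars, chr4:129189895-129189924, plus strand: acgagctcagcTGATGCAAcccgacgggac
The presence of the letters did not go with a larger change among the 13 cytosolic genes with a window. The 5 genes with them had log2 fold changes of 0.17 to 0.46 (median 0.27), and the 8 without them had -0.18 to 0.71 (median 0.28), with Eprs and Sars among those without. Cars, Hars, Lars, Nars, Rars, Vars and Wars had no window and are not in this comparison. Their log2 fold changes ran from 0.03 (Hars) to 0.54 (Nars). A match of letters is a description and not a shown binding site, and a window without them says nothing about sites farther away.

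The motif of GABP, a factor known to act on nuclear genes of mitochondrial proteins, was looked up in the same windows on both strands. Its letters CCGGAAGT were found in 2 of the 13 cytosolic windows (Farsa and Mars) and in 1 of the 14 mitochondrial windows, beside 3.89% of all windows. They were thus not more frequent in the mitochondrial windows. The mitochondrial window was of Rars2, the member with the largest called decrease, which is why it is shown, with the reverse complement of the motif in capitals. A link between the letters and that decrease was not tested.
Rars2, chr4:34614941-34614970, plus strand: aagcagaggcgACTTCCGGcgcggaggcgg

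Among the mitochondrial enzymes, Rars2, which charges arginine tRNA in the mitochondrion, had the largest decrease that passed the test (chromosome 4, 34614957 to 34660167, plus strand). Its normalized count was 340, 339 and 329 in controls and 159, 146 and 186 in H/R cells. All H/R libraries lay far below the controls, which hardly differed from each other. The log2 fold change was -1.03 (SE 0.098, adjusted p = 2.74e-11), a fold change of 0.488.

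Yars2, the tyrosine enzyme (chromosome 16, 16302965 to 16309640, plus strand), had normalized counts of 220, 192 and 211 in controls and 139, 138 and 117 in H/R cells. The groups did not overlap, and the log2 fold change was -0.66 (SE 0.11, adjusted p = 3.96e-06). Pars2, the proline enzyme (chromosome 4, 106651069 to 106655282, plus strand), was among the members with the fewest counts. It had 38.8, 65.3 and 92.3 normalized counts in controls and 43.1, 41.0 and 35.0 in H/R cells. The controls were spread widely and control replicate 1 lay inside the range of the H/R libraries. Its log2 fold change of -0.72 (SE 0.25, adjusted p = 0.0164) was no longer called without control replicate 3 (-0.39, adjusted p = 0.169), H/R replicate 2 (-0.75, adjusted p = 0.0597) or H/R replicate 3 (-0.64, adjusted p = 0.0849), nor on the log2 scales of RPKM + 1 (-0.34, adjusted p = 0.0800) and RPKM + 0.1 (-0.67, adjusted p = 0.0709).

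The other 6 mitochondrial genes that fell were Aars2 (alanine, -0.49), Cars2 (cysteine, -0.38), Sars2 (serine, -0.27), Hars2 (histidine, -0.14), Tars2 (threonine, -0.14) and Iars2 (isoleucine, -0.12), as log2 fold changes. Aars2 had 362 ± 16.7 normalized counts in controls and 257 ± 15.2 in H/R cells, and Cars2 had 179 ± 1.86 and 137 ± 16.5 (SD, n = 3). The calls of Aars2, Cars2, Rars2 and Yars2 held under every alternative run for them. The small decreases of Sars2, Hars2, Tars2 and Iars2 did not, and DESeq2 called none of these 4 (adjusted p = 0.0720, 0.104, 0.105 and 0.0753). Hars2 was also not called without a filter on low counts (adjusted p = 0.0565). Without control replicate 1 the calls of Hars2 (adjusted p = 0.0627) and Tars2 (0.119) were lost. Without control replicate 3, adjusted p rose to 0.0570 for Hars2, 0.0523 for Iars2, 0.0797 for Sars2 and 0.0978 for Tars2, which together with Pars2 left 4 lower genes in place of 9. Without H/R replicate 1 the calls of Hars2, Iars2 and Sars2 were lost (adjusted p = 0.0513, 0.0620 and 0.154), without H/R replicate 2 those of Hars2, Iars2 and Tars2 (0.143, 0.0923 and 0.0866), leaving 5 lower genes, and without H/R replicate 3 that of Tars2 (0.0988). Exons of Iars2 overlap those of Rab3gap2 and 2010103J01Rik on the opposite strand over 0.242 of its length.

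Lars2, the leucine enzyme (chromosome 9, 123366927 to 123462666, plus strand), is singled out because 1 library decides its value, which was seen after its values were known. It had 3531, 900 and 890 counts in controls and 602, 539 and 795 in H/R cells. Every H/R library was below every control, but control replicate 1 was far above the other controls. With all libraries the log2 fold change was -1.32 with an SE of 0.73 and was not called (adjusted p = 0.193), and without control replicate 1 it was -0.34 and was called (adjusted p = 0.0111). Adjusted p for Lars2 ranged from 0.0111 to 0.358 over its alternatives. Control replicate 1 is the library with 131335 counts of Rn18s-rs5, and the part of whatever set that library apart in the value of Lars2 was not tested.

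Mitochondrial enzymes that rose were fewer. Fars2, the phenylalanine enzyme of the mitochondrion, which is a single chain unlike the cytosolic enzyme of Farsa and Farsb, rose most (chromosome 13, 36117411 to 36537592, plus strand). Its normalized count was 177, 180 and 211 in controls and 284, 291 and 299 in H/R cells, with no overlap. The log2 fold change was 0.62 (SE 0.096, adjusted p = 8.86e-07). Wars2 (tryptophan) rose by 0.47 (adjusted p = 2.10e-06), Mars2 (methionine) by 0.46 (adjusted p = 0.000643) and Nars2 (asparagine) by 0.24 (adjusted p = 0.0309) on the log2 scale. Mars2 had only 134 ± 14.8 normalized counts in controls and 185 ± 7.76 in H/R cells (SD, n = 3), and its call was lost on the log2 scale of RPKM + 0.1 (log2 fold change 0.32, adjusted p = 0.0652). The call of Nars2 was lost without control replicate 1 (adjusted p = 0.0548), control replicate 3 (0.143) or H/R replicate 3 (0.131), and also with DESeq2 (0.0722), upper quartile factors (0.123), library totals (0.225) and on the log2 scales of RPKM + 1 (0.278) and RPKM + 0.1 (0.287).

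Ears2, the glutamate enzyme, and Vars2, the valine enzyme, were not called. Ears2 had 248 ± 39.8 normalized counts in controls and 222 ± 5.56 in H/R cells (SD, n = 3), a log2 fold change of -0.16 (adjusted p = 0.179) with overlapping groups. Ears2 was called lower without control replicate 2 (-0.26, adjusted p = 0.0341) and with library totals (adjusted p = 0.0266). Vars2 had 460, 465 and 458 normalized counts in controls and 436, 454 and 436 in H/R cells, so that all H/R libraries were slightly below the controls. Its log2 fold change was -0.06 (SE 0.071, adjusted p = 0.460). With library totals and on both RPKM scales Vars2 was called lower.

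**Figure D2:**
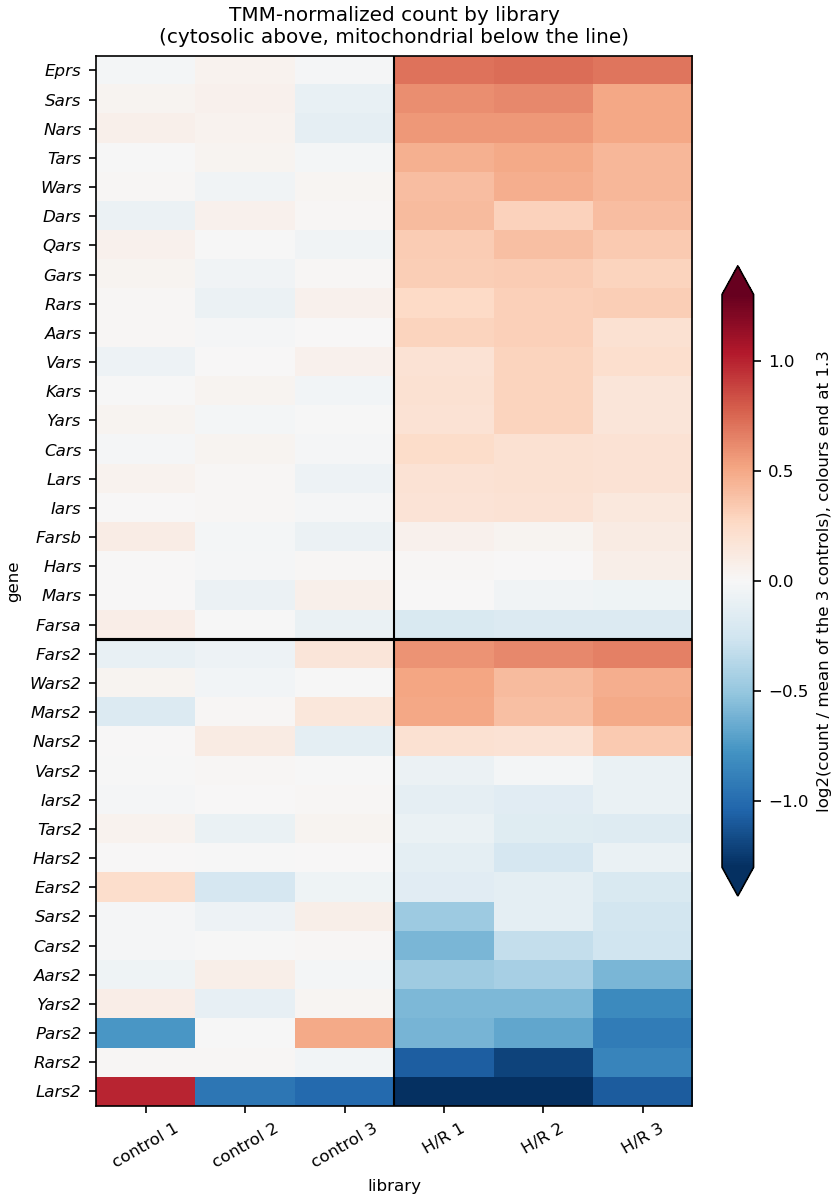
Each row is a gene and each column a library, and the colour gives the log2 of the TMM-normalized count over the mean of the 3 controls, with colours ending at 1.3 in both directions. The 3 H/R columns are red for the upper cytosolic rows (Eprs, Sars and Nars first) and blue for the lower mitochondrial rows, and the rows of Lars2 and Pars2 also differ within the controls.

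The 2 compartments differed in level as well. Levels between genes were compared as RPKM, the count per gene length and library total that the authors deposited, in which the group mean of each cytosolic gene was above that of each mitochondrial gene. In control replicate 1 alone, Lars2 (14.6 RPKM) was above Yars (12.7 RPKM). Mean RPKM in controls was 12.6 (Yars) to 576 (Nars) over the cytosolic genes and 0.581 (Mars2) to 10.9 (Iars2) over the mitochondrial genes. After H/R it was 13.6 (Yars) to 782 (Nars) and 0.584 (Pars2) to 9.35 (Iars2). The most abundant cytosolic genes included those with the larger increases, Nars and Sars, while Eprs, with the largest increase, had an intermediate level of 31.5 ± 0.977 RPKM in controls and 47.9 ± 0.484 in H/R cells (SD, n = 3).

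**Figure D3:**
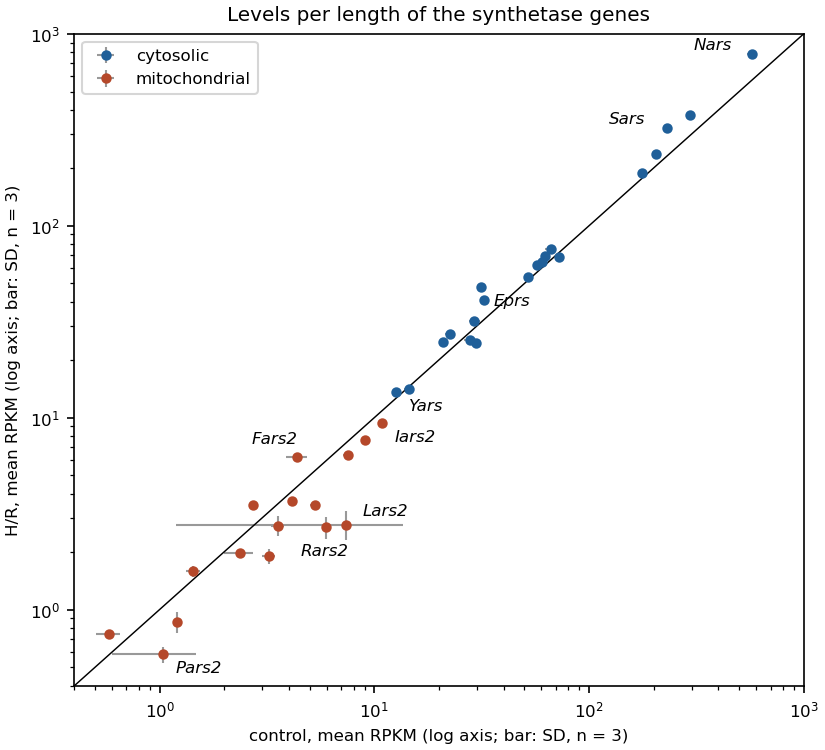
Mean RPKM in H/R cells is plotted against mean RPKM in controls for each gene, both on log axes, with bars for the SD of 3 libraries and a line for equal levels. The cytosolic points occupy the upper right, from 12.6 to 576 RPKM in controls, the mitochondrial points the lower left, from 0.581 to 10.9, and the bars of Lars2 and Pars2 are wide along the control axis.

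Summed over the 20 cytosolic genes, the TMM-normalized count was 165217 ± 4430 in controls and 218888 ± 4624 in H/R cells (SD, n = 3), a ratio of 1.32. Summed over the 16 mitochondrial genes it was 8480 ± 1449 and 6954 ± 178, a ratio of 0.820, and without Lars2 it was 6793 ± 89.7 and 6279 ± 71.5, a ratio of 0.924. As sums of RPKM these ratios were 1.23, 0.793 and 0.842 in the same order, so their size depends on the scaling. Abundant genes weigh most in such sums. In the cytosolic sum, mean normalized counts went from 30980 to 45180 for Nars and from 24280 to 36294 for Sars. Within a library, the summed RPKM of the cytosolic genes over that of the mitochondrial genes does not depend on library scaling. This ratio was 27.2, 31.8 and 29.4 in controls and 45.9, 46.8 and 43.6 in H/R cells. Without Lars2 it was 33.5, 33.7 and 31.1 in controls and 48.2, 49.0 and 46.3 in H/R cells. In both forms every H/R library exceeded every control. Exact tests on such ratios cannot go below p = 0.1 with 3 libraries against 3.

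The same comparison was made within each amino acid, as the log2 ratio of the cytosolic to the mitochondrial count in each library. There were 17 such pairs for the 16 mitochondrial enzymes, since the phenylalanine enzyme of the cytosol has 2 genes and Eprs is paired with both Ears2 and Pars2. In 13 pairs the ratio was above all controls in each H/R library, in 3 pairs it was below, and in 1 pair the groups overlapped. That is 94.1% of pairs without overlap. Each of these has the smallest two-sided exact permutation p of 0.1 (adjusted p = 0.106 over the 17 pairs). Of single tested genes, 32.5% lay above and 33.5% below without overlap, and ratios of other gene pairs were not computed, so the count is not read as particular to these pairs. The median difference of the log2 ratio (H/R minus control) was 0.60, and the differences ran from -0.81 to 1.35.

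The widest shifts toward the cytosolic enzyme were those of proline, arginine and leucine. The Eprs to Pars2 ratio of RPKM was 50.2, 31.4 and 21.3 in controls and 75.1, 80.2 and 92.5 in H/R cells, a 2.55-fold change of the ratio. The Rars to Rars2 ratio was 11.1, 10.5 and 11.8 in controls and 28.1, 31.8 and 25.2 in H/R cells, a 2.54-fold change. For arginine both sides contributed, since Rars rose by 0.30 and Rars2 fell by 1.03 on the log2 scale. The Lars to Lars2 ratio was 12.4, 46.1 and 45.8 in controls and 70.5, 79.0 and 57.3 in H/R cells, and its wide spread in controls comes from the high Lars2 count of control replicate 1. The difference of its log2 ratio was 1.20 with all libraries and 0.57 without control replicate 1.

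Shifts toward the mitochondrial enzyme were seen for phenylalanine and methionine. The Farsa to Fars2 ratio of RPKM was 7.76, 7.16 and 5.80 in controls and 3.97, 3.95 and 3.84 in H/R cells, a fold change of 0.572, with Farsa lower and Fars2 higher after H/R. Farsb to Fars2 went from 3.80, 3.43 and 2.82 to 2.30, 2.21 and 2.27. Mars to Mars2 went from 54.5, 45.0 and 45.6 to 33.9, 35.5 and 32.7. For tryptophan, both Wars and Wars2 rose and the ratio did not separate the groups (11.8, 11.9 and 12.2 in controls, 11.1, 12.4 and 11.6 in H/R cells, exact permutation p = 0.6). Asparagine was the other amino acid for which both enzymes rose, and Nars to Nars2 went from 417, 385 and 404 to 517, 522 and 451.

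**Figure D4:**
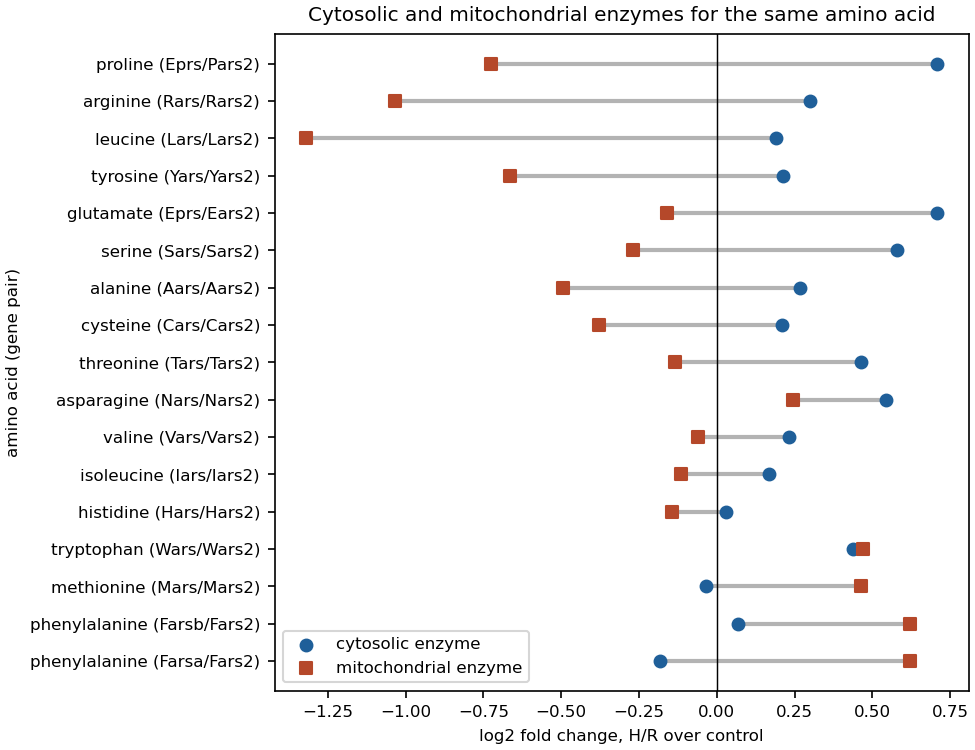
For each pair of a cytosolic (circle) and a mitochondrial (square) enzyme of the same amino acid, the log2 fold changes (H/R over control, horizontal axis) are joined by a line. In 13 of the 17 pairs the circle lies right of the square, and the order is turned for phenylalanine (both chains) and methionine, while the points of tryptophan nearly coincide at 0.44 and 0.47.

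Neighbouring steps of the 2 translation systems were read from lists of genes. The mitochondrion has no glutamine enzyme of its own. Ears2 loads glutamate on the glutamine tRNA, and an amidotransferase of the products of Qrsl1, Gatb and Gatc then converts it. All 3 of its genes fell, by 0.47 (Qrsl1), 0.63 (Gatb) and 0.66 (Gatc) on the log2 scale, with adjusted p of 0.000672, 2.51e-07 and 2.81e-11. Mtfmt, which formylates the initiator methionine after Mars2 has loaded it, had a log2 fold change of -0.26 that was not called (adjusted p = 0.0599).

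The elongation factors of the cytosol, which carry the charged tRNAs to the ribosome and move it along, rose in 5 of 5 genes with TMM factors. The largest changes were 0.61 for Eef2, the translocation factor, and 0.43 for Eef1a1, which delivers the charged tRNA, both as log2 fold changes. The smallest was 0.12 for Eef1d (adjusted p = 0.0183). In RPKM, Eef1d had 96.3 ± 3.61 in controls and 97.4 ± 2.09 in H/R cells (SD, n = 3). Of 10 translation factors of the mitochondrion, 7 fell and 1 rose. The release factor gene Mtrf1 fell by 1.02, the initiation factor gene Mtif2 by 0.67, Taco1, which activates translation of the Cox1 message, by 0.67 and Mtrf1l by 0.40 on the log2 scale, whereas the ribosome recycling factor gene Mrrf rose by 0.29. Of 78 genes for proteins of the mitochondrial ribosome, 41 fell and 10 rose, with a median log2 fold change of -0.16 and the largest decreases for Mrpl41 (-1.38) and Mrpl18 (-0.88). The list of tRNA maturation and export did not follow the cytosolic synthetases, as 7 of its 12 genes fell and 2 rose. In it, the 3′ trailer nuclease gene Elac1 rose by 0.90 on the log2 scale. All of these counts stand beside 31.0% of tested genes called higher and 31.8% called lower.

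**Figure D5:**
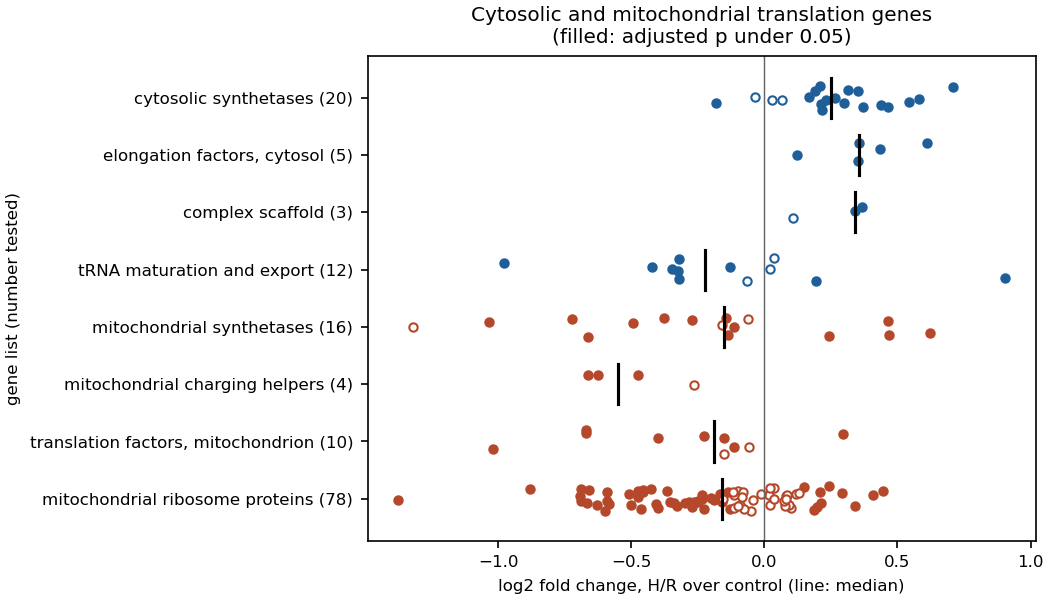
Each point is the log2 fold change (H/R over control, horizontal axis) of 1 gene, filled for adjusted p under 0.05, in lists of cytosolic (blue) and mitochondrial (orange) translation genes, with the number of genes tested in brackets and a line at the median. The medians are 0.25 and 0.36 for the cytosolic synthetases and elongation factors and -0.15, -0.19 and -0.16 for the synthetases, translation factors and ribosome proteins of the mitochondrion. Of the other lists, the median is 0.34 for the complex scaffold and -0.55 for the mitochondrial charging helpers. The list of tRNA maturation and export, drawn in blue, has a negative median too, -0.22.

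Exons of 6 cytosolic members (Aars, Cars, Farsb, Hars, Mars and Yars) and 6 mitochondrial members (Cars2, Ears2, Hars2, Iars2, Nars2 and Vars2) overlap those of another gene, so their counts are uncertain. For Aars the overlap is largest in this compartment, 0.151 of its exon length, and is with Exosc6 on the same strand and Gm24103 on the opposite strand. Among the 14 cytosolic genes that share no exon, 13 rose and 1 fell, with a median log2 fold change of 0.33. Among the 10 mitochondrial genes that share none, 3 rose and 6 fell, with a median of -0.38. Over all tested genes, 31.0% were called higher and 31.8% lower. The difference between the compartments was thus wider among the genes that share no exon sequence than among all 36.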

How the data were processed

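AML12 cells were profiled in 6 RNA-seq libraries, 3 control and 3 H/R, made from total RNA with a stranded mRNA kit. Groups and replicate numbers came from the sample titles. Per the labels, the authors trimmed reads with Trimmomatic 0.36 and counted them per gene with featureCounts (Subread 1.5.1) on GRCm38; whether strand was used is not given in the sources used here. The deposited counts are unnormalized whole numbers, and the deposited RPKM values follow from the count, gene length and library total (largest relative error 1.13e-06). Each table lists 25330 genes.

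The count test used edgeR 4.0.16 in R 4.3.3 (filterByExpr, TMM, robust quasi-likelihood test, Benjamini-Hochberg adjustment over 14020 genes). The coefficient of variation between replicates was 0.0502, and replicates of a group differed beyond sampling noise (chi-square over its degrees of freedom 2.19 to 16.2 in the 6 pairs). Normalized counts are per effective library size, rescaled to the mean of the effective sizes. Log2 ratios of paired enzymes were compared by exact two-sided permutation tests, with 0.5 added to both counts as an alternative. The fits were tested on simulated counts. Alternatives were DESeq2 1.42.0, other scaling factors and count filters, a replicate block, limma 3.58.1 on log2(RPKM + 1) and log2(RPKM + 0.1), genes without shared exons, and leaving out each library.

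Members and lists were chosen with earlier results of these data known. Values per library are given for members called with an absolute log2 fold change of at least 0.5. They are also given for the 3 members nearest to no change and for Lars2. Of each list at most 4 called genes with the largest changes are named, besides Atf4, Eef1d, the scaffold genes, cell markers and some genes not called. Some items that this choice would name are not reported here. RefSeq promoter windows matched 27 members by symbol (Mars as Mars1) and none was given for the other 9.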

Additional observations from a re-analysis of the deposited data

How the results depend on the processing

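The direction of the cytosolic and mitochondrial medians held under all 15 alternatives. The cytosolic median log2 fold change was 0.18 with upper quartile factors, 0.14 with library totals, 0.14 on the log2 scale of RPKM + 1, 0.14 on that of RPKM + 0.1 and 0.34 without genes that share exons, and the mitochondrial median was -0.22, -0.26, -0.22, -0.24 and -0.38 in the same order. The cytosolic minus mitochondrial median, 0.40, was 0.36 on log2(RPKM + 1) and 0.72 without genes that share exons. Leaving out 1 library at a time gave 0.23 to 0.27 for the cytosolic median, -0.22 to -0.13 for the mitochondrial median, 0.38 to 0.46 for their difference, and 4 to 10 lower mitochondrial genes. DESeq2 gave 5 lower mitochondrial genes and library totals gave 11. Cytosolic genes called lower were 2 with library totals and 2 on either RPKM scale, and the scale with 0.1 added gave 2 higher mitochondrial genes. Without genes that share exons, 5366 genes passed the test in place of 8806, since fewer were tested. The sign of Farsb turned (-0.0035 with upper quartile factors, -0.037 with library totals, -0.034 and -0.037 on the RPKM scales), as did that of Hars (-0.041, -0.076, -0.075 and -0.076), of Mars (-0.071 to 0.0020 when 1 library was left out, positive without control replicate 3) and of the Wars to Wars2 ratio (-0.074 to 0.0064, positive without H/R replicate 1). The cause of these changes was not tested.

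Same-numbered replicates did not deviate together (correlations of -0.043, 0.0043 and -0.011), so no pairing by number was seen. These correlations cannot decide whether same-numbered libraries were handled together. With the replicate block, 16 cytosolic genes were higher and 1 lower, 4 mitochondrial genes were higher and 9 lower, and 8787 genes passed in all. Counts limit Pars2 and Mars2 most, and 3 libraries per group allow no exact p under 0.1.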
